A study of Mus musculus with 40 samples.

Results

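Anti-Müllerian hormone (AMH) was given together with doxorubicin to prepubertal mice, and the uterus was compared 24 h later with that of mice given doxorubicin alone. The comparison used 10 of the 40 RNA-seq libraries of the study, 5 from doxorubicin + AMH and 5 from doxorubicin, and 14360 of the 54532 genes in the table. Genes were kept when they reached 1 FPKM (fragments per kilobase of gene, scaled by a factor for each library) in at least 5 of these 10 libraries. The doxorubicin + AMH group had received doxorubicin at 3 mg/kg in 2 weekly doses with AMH at 0.75 mg/kg, and the doxorubicin group the same doxorubicin without AMH. For reference, 5 libraries each came from mice given AMH alone (0.75 mg/kg) and from mice given vehicle (PBS or saline), and all 4 groups were also sampled at 4 h. Postnatal day 25 and 2 weekly doses were recorded for every group. Which dose fell on that day, and which dose the 24 h followed, was not resolved here. Strain and pooling of animals were not given in the labels. Libraries were numbered as biological replicates but were not said to come from separate mice, so the p-values measure the spread between these libraries.

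AMH is a TGF-beta family hormone that makes the Müllerian ducts, from which uterus and oviduct form, regress in male fetuses. It binds the receptor Amhr2, which pairs with a type I BMP receptor such as Bmpr1a or Acvr1, and the SMAD proteins phosphorylated by that pair switch on genes of the Id family. Doxorubicin is an anthracycline that traps topoisomerase II on DNA and so breaks it, which activates p53.

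All 14 smooth muscle markers, all 14 uterine stroma markers and all 18 epithelial markers on the lists passed the filter on low values. Their mean log2(FPKM + 1) was 5.61 to 5.86, 4.95 to 5.24 and 4.88 to 5.03 in the doxorubicin + AMH libraries. In the doxorubicin libraries it was 5.42 to 5.96, 4.86 to 5.45 and 4.81 to 5.93, so the labelled tissue held its defining cell types in both groups. The depth rebuilt from the table was 16251563 to 24209094 reads in genes in these 10 libraries. Oviduct and ciliated cell markers were high in doxorubicin + AMH library 4 (score 5.08) and in doxorubicin libraries 3, 4 and 5 (4.66 to 5.14), against 2.54 to 3.52 in the other libraries. Doxorubicin + AMH library 4 and doxorubicin library 5 stood apart from their groups in several lists. In bulk tissue, fewer cells of a type and less RNA per cell cannot be told apart.

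Few genes passed the test for an AMH difference at 24 h, while 12.9% of genes had an unadjusted p under 0.05. A total of 54 genes passed the test (limma on log2(FPKM + 1), Benjamini-Hochberg adjusted p under 0.05 over all genes kept), which is 0.376% of those tested. Of these, 21 rose (0.146% of genes) and 33 fell (0.23%), and 48 were protein coding. The log2 difference was above 0 in 49.1% and below 0 in 50.9% of all genes, with a median of -0.004. In 47 of the 54 genes the 5 doxorubicin + AMH libraries lay entirely above or below the 5 doxorubicin libraries, 18 above and 29 below. Over all genes this was so for 1.49% above and 1.36% below. The size of the change was modest: 7 genes fell and 3 rose by at least 2-fold on the log2(FPKM + 1) scale. Filtering bears on 4 of the 54 genes (Depdc7, 5930430L01Rik, Gm43682 and Spata45), which were below 1 FPKM in every library of their lower group and so passed the filter only through the higher one.

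The spread in this test was estimated from all 8 groups of the study. With only the 10 libraries compared in the fit, 0 genes passed (smallest adjusted p = 0.0698, 39 genes under 0.1, 23 of them among the 54), and 1854 had an unadjusted p under 0.05, against 1853 with all groups. With only the 24 h libraries 1 gene passed, and 26 passed with no filter on low values. Library weights raised the count to 2135. Without doxorubicin library 5 it was 238, 131 higher and 107 lower. Without doxorubicin + AMH library 1, 2, 3 or 5 it was 18, 7, 26 and 20, and without doxorubicin library 1, 2, 3 or 4 it was 18, 24, 24 and 14. Results given below without doxorubicin library 5 (list counts, Amhr2 and Tsc22d3) thus come from the single omission that gave the most calls. For those lists, counts with another single library left out are not given. Over the whole study 8 libraries were high in oviduct markers, 4 of them among the 10 compared. Without these 8, which leaves 4 doxorubicin + AMH and 2 doxorubicin libraries at 24 h, 60 genes passed, 11 higher and 49 lower, and 16 of the 54 were among them. The calls of Errfi1, Wee1, Gm45819, Gata2, Fbxo17, Gm12966 and Gm14226 held when any 1 of the 10 libraries was left out.

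**Figure D1:**
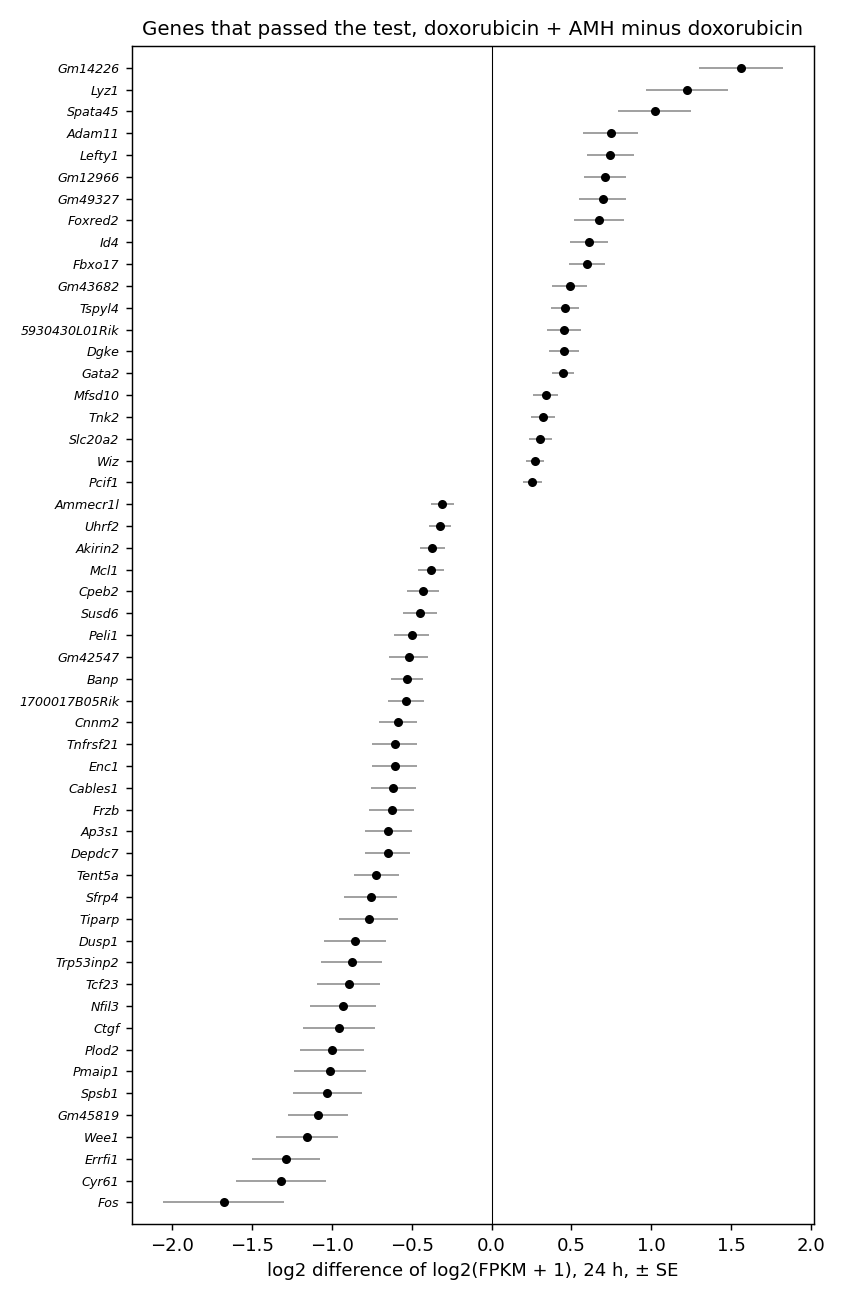
Log2 difference of log2(FPKM + 1) with its standard error for the genes that passed the test at 24 h, doxorubicin + AMH minus doxorubicin, ordered by size (1 gene is not shown). The higher genes stand above the 33 lower ones, with Gm14226 at 1.56 and Fos at -1.68 at the ends.

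The promoters of 5 genes that the results turn on are shown because they hold a regulatory motif in common with other genes that changed. RefSeq promoters (build GRCm38.p6, 250 bases before to 50 bases after each transcription start) were found for 32 of the 54 genes, 19 lower and 13 higher. Among the lower genes, Errfi1, Dusp1 and Trp53inp2 hold the cyclic AMP response element TGACGTCA, as does the higher gene Tspyl4. Of all 32851 promoters of this length, 1.79% hold it on either strand. The element is in capitals at 51 bases before the start in Errfi1 (chr4:150854820-150855119, plus strand), 143 in Dusp1 (chr17:26508423-26508722, minus strand) and 41 in Trp53inp2 (chr2:155381606-155381905, plus strand).
Errfi1: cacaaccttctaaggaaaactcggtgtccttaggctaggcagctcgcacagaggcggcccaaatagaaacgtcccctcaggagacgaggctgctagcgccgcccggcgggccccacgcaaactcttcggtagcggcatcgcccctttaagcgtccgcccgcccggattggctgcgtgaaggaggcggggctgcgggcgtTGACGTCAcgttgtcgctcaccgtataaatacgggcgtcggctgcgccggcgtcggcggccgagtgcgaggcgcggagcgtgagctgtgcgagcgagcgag
Dusp1: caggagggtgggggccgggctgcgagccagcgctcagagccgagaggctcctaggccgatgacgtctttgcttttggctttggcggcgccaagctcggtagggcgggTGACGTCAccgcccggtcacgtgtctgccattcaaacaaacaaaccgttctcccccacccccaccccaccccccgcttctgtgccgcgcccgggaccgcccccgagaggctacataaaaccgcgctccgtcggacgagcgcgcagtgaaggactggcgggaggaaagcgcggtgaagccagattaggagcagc
Trp53inp2: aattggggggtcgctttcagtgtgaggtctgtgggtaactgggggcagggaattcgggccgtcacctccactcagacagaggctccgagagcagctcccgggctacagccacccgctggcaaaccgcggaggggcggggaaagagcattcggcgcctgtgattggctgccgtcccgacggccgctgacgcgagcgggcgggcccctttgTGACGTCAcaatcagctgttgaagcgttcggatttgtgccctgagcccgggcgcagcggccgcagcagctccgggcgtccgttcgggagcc
In the promoters of the higher genes Id4 (chr13:48260866-48261165, plus strand) and Gata2 (chr6:88198414-88198713, plus strand), the capitals mark GGCGCC, a GC-rich element bound by SMAD proteins. The Id4 match begins 148 bases before the start, and the Gata2 matches begin 38 bases before and 22 bases after it.
Id4: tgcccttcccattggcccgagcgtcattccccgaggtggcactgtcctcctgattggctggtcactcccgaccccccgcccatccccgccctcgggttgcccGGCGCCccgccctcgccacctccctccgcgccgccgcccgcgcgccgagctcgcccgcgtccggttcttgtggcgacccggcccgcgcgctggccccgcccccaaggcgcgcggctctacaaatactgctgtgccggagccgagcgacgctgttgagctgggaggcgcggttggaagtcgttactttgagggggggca
Gata2: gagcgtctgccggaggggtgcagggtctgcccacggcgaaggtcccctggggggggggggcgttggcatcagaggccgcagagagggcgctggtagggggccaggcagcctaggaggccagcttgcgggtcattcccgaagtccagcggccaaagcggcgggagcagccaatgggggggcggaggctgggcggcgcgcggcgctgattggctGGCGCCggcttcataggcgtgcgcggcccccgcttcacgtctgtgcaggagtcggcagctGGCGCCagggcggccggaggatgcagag
GGCGCC stands in 11.9% of all promoters. It was found for 2 of the 13 higher genes and for 10 of the 19 lower genes, Dusp1 and Trp53inp2 included. For each motif a gene was counted if any of its promoters held it, whereas the shares are of single promoters. Counts of genes and shares of promoters are thus in unlike units. The E-box CACGTG (7.15% of all promoters) was found for 3 lower genes (Depdc7, Dusp1 and Tnfrsf21) and 2 higher ones (5930430L01Rik and Foxred2), and the D-box TTATGTAA (0.938%) for Spata45. The palindromic glucocorticoid response element, AGAACA and TGTTCT set 3 bases apart (0.00913%), was found in none of the 32. All motifs were searched on both strands, CACGTG and TGACGTCA share the letters ACGT, and a match is a description of the sequence only.

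Among the genes that passed, the largest decreases were those of Fos, Cyr61, Errfi1 and Wee1, followed by Gm45819, Spsb1 and Pmaip1. Errfi1 (chromosome 4, 150853919 to 150868892, mm10), a feedback inhibitor of the EGF receptor, had 18.0, 16.9, 12.8, 16.7 and 15.8 FPKM in the 5 doxorubicin + AMH libraries, against 25.5, 46.1, 28.4, 52.6 and 60.7 FPKM in the 5 doxorubicin libraries. The groups did not overlap, and the doxorubicin + AMH libraries were close together. The log2 difference was -1.29 ± 0.21 (SE; limma adjusted p = 0.00368). AMH alone gave 18.7 FPKM on average, against 54.4 FPKM in vehicle, so Errfi1 was low in both groups that had AMH. Fos (chromosome 12, 85473890 to 85477273), a subunit of the AP-1 transcription factor, had 3.33, 4.28, 3.94, 3.46 and 4.06 FPKM with doxorubicin + AMH, against 26.1, 21.1, 16.6, 8.82 and 7.23 FPKM with doxorubicin. All 5 doxorubicin + AMH libraries lay below the lowest doxorubicin library, and the log2 difference was -1.68 ± 0.38 (adjusted p = 0.0362). Dusp1, a phosphatase that inactivates MAP kinases, had 7.93, 8.01, 5.71, 5.34 and 8.67 FPKM, against 17.4, 19.999, 11.3, 10.6 and 10.6 FPKM with doxorubicin. Its groups did not overlap either, and it fell by 0.85 on the log2 scale (adjusted p = 0.0376).

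Fos and Dusp1 were the 2 of 30 immediate early genes kept that passed, and 9 of the 30 were lower and 3 higher at an unadjusted p under 0.05, with a median log2 difference of -0.25. Over all genes 6.22% were lower and 6.69% higher at that threshold, and 0.376% passed the test. Of 19 EGF receptor pathway genes only Errfi1 passed, with a median of -0.04. When the 10 libraries were left out in turn, the calls of Fos and Dusp1 were lost in 9 cases each, with an adjusted p of 0.0134 to 0.127 for Fos and of 0.0175 to 0.127 for Dusp1.

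Cyr61 and Ctgf, which encode secreted matricellular proteins and are known targets of YAP and of TGF-beta, both fell. Cyr61 (chromosome 3, 145646976 to 145649981) had 4.67, 6.94, 7.12, 8.73 and 10.7 FPKM with doxorubicin + AMH, against 26.4, 19.1, 20.2, 21.0 and 14.5 FPKM with doxorubicin. The groups did not overlap, and the log2 difference was -1.32 ± 0.28 (adjusted p = 0.0249). Ctgf had 15.3, 13.6, 18.9, 8.81 and 13.0 FPKM, against 33.4, 31.0, 30.8, 30.6 and 15.2 FPKM with doxorubicin, where library 5 stood apart at a level within the range of the doxorubicin + AMH libraries. It fell by 0.96 on the log2 scale (adjusted p = 0.0486). Of 15 Hippo-YAP and cytoskeletal targets and of 18 TGF-beta ligands and targets, these 2 genes alone passed (0.376% of all genes). The list medians were -0.01 and -0.16. Without the high-oviduct libraries neither passed (adjusted p = 0.104 for Cyr61 and 0.093 for Ctgf).

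Plod2, Sfrp4 and Frzb also fell. Plod2, a lysyl hydroxylase that prepares collagen for cross-linking, had 8.38, 6.51, 9.55, 11.3 and 8.49 FPKM with doxorubicin + AMH, against 20.4, 14.6, 16.8, 16.1 and 26.1 FPKM with doxorubicin. The groups did not overlap, and Plod2 fell by 1.00 on the log2 scale (adjusted p = 0.0193). Of 36 collagen and matrix genes none passed, 28 lay below 0 (50.9% of all genes), and the median was -0.25. Sfrp4, a secreted WNT antagonist, had 7.32, 7.91, 5.90, 9.33 and 9.10 FPKM, against 18.2, 13.8, 15.8, 12.5 and 10.48 FPKM with doxorubicin. Again no library of one group reached the other, and Sfrp4 fell by 0.76 (adjusted p = 0.0288). Frzb, another secreted WNT antagonist, averaged 3.17 ± 0.38 FPKM, against 5.50 ± 1.18 FPKM with doxorubicin (SD, n = 5 each; log2 difference -0.62, limma adjusted p = 0.0362). The list of 35 WNT and Müllerian duct genes as a whole had a median of 0.18. Of its members 23 lay above 0 (49.1% of all genes), and Sfrp4 was the single call.

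Wee1 was the one gene of the list of G1 cyclins, CDK inhibitors and Wee1 that passed. Wee1 (chromosome 7, 110122046 to 110143286), the kinase that keeps CDK1 inactive before mitosis, had 4.44, 5.35, 7.67, 6.80 and 4.65 FPKM with doxorubicin + AMH, against 9.25, 19.8, 11.4, 13.8 and 17.5 FPKM with doxorubicin. The groups did not overlap, and the log2 difference was -1.16 ± 0.20 (adjusted p = 0.00368). Gm45819, a transcript of biotype TEC that ends 306 bases before Wee1 on the same strand, fell with it, to 1.71 ± 0.552 FPKM against 4.83 ± 1.57 FPKM with doxorubicin (SD, n = 5 each; log2 difference -1.09, limma adjusted p = 0.00369). Whether its reads belong to Wee1 was not tested. Nfil3, a bZIP repressor in the clock output, had 6.86, 8.98, 8.60, 11.8 and 8.78 FPKM, against 13.4, 25.5, 12.4, 18.0 and 23.8 FPKM with doxorubicin, and fell by 0.93 with no overlap (adjusted p = 0.0313). Wee1 and Nfil3 were the 2 of 19 core clock and clock output genes that passed (0.376% of all genes). The list's median was 0.01. Without the high-oviduct libraries the Wee1 and Nfil3 calls were lost (adjusted p = 0.0578 and 0.0652).

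All 26 mitosis genes kept had a log2 difference below 0 (50.9% of all genes). The median was -0.92, but none passed and no gene separated the groups. The list score (mean log2(FPKM + 1)) was 1.05 to 2.14 in the doxorubicin + AMH libraries, against 1.57 to 3.15 in the doxorubicin libraries. Doxorubicin libraries 1 and 3 were the high ones, at 3.08 and 3.15. Mki67, a marker of dividing cells, had 2.15, 2.01, 6.59, 2.43 and 1.46 FPKM, against 13.0, 5.52, 11.2, 3.23 and 2.90 FPKM with doxorubicin (adjusted p = 0.569). The targets of doxorubicin itself gave 3.46 against 7.42 FPKM for Top2a (adjusted p = 0.605) and a log2 difference of 0.02 for Top2b (adjusted p = 0.957). Genes of DNA replication and S phase did not share the direction, with a median of 0.05 over 28.

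Among genes of cell death, a promoter and an inhibitor of apoptosis both fell. Pmaip1, which encodes the pro-apoptotic BH3 protein NOXA and is a p53 target, had 1.04, 0.817, 1.32, 1.76 and 0.931 FPKM with doxorubicin + AMH, against 3.10, 3.32, 3.82, 5.00 and 1.97 FPKM with doxorubicin. The groups did not overlap, and it fell by 1.01 on the log2 scale (adjusted p = 0.0317). Mcl1, the anti-apoptotic BCL2 family member that NOXA binds, had 65.2, 63.2, 65.4, 63.4 and 61.0 FPKM, against 97.5, 83.3, 82.1, 86.1 and 69.5 FPKM with doxorubicin. It was even across the doxorubicin + AMH libraries and fell by 0.38 (adjusted p = 0.0249). Mcl1 was the single call among 28 BCL2 family and cell death genes, whose median was -0.13. Tnfrsf21, which encodes death receptor 6, averaged 7.43 ± 1.18 FPKM, against 11.95 ± 2.86 FPKM with doxorubicin (SD, n = 5 each; limma adjusted p = 0.0449).

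Of 41 p53 target genes kept, Pmaip1 alone passed (0.23% of all genes fell). A log2 difference below 0 was seen in 34 (50.9% of all genes), with a median of -0.32. At an unadjusted p under 0.05, 13 were lower (6.22% of all genes). The list score was 3.34 to 3.67 in doxorubicin + AMH libraries and 3.63 to 4.12 in doxorubicin libraries, against 3.06 to 3.19 with AMH alone and 3.08 to 3.29 with vehicle. Doxorubicin + AMH library 4 overlapped doxorubicin libraries 1 and 5. Cdkn1a, the p53 target that encodes the CDK inhibitor p21, had 20.9, 26.0, 43.2, 52.3 and 44.2 FPKM, against 39.7, 96.9, 92.7, 82.5 and 52.7 FPKM with doxorubicin. These ranges overlapped and Cdkn1a did not pass (log2 difference -0.95 ± 0.36, adjusted p = 0.265), nor did Mdm2 (adjusted p = 0.451). Against vehicle, which both comparisons share, the median over the 41 genes was 0.38 for doxorubicin + AMH and 0.46 for doxorubicin. Without doxorubicin library 5 the number of p53 targets that fell was 4, against 107 of all 14360 genes. The Pmaip1 call was lost with any of 8 of the 10 libraries left out (adjusted p up to 0.121).

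**Figure D2:**
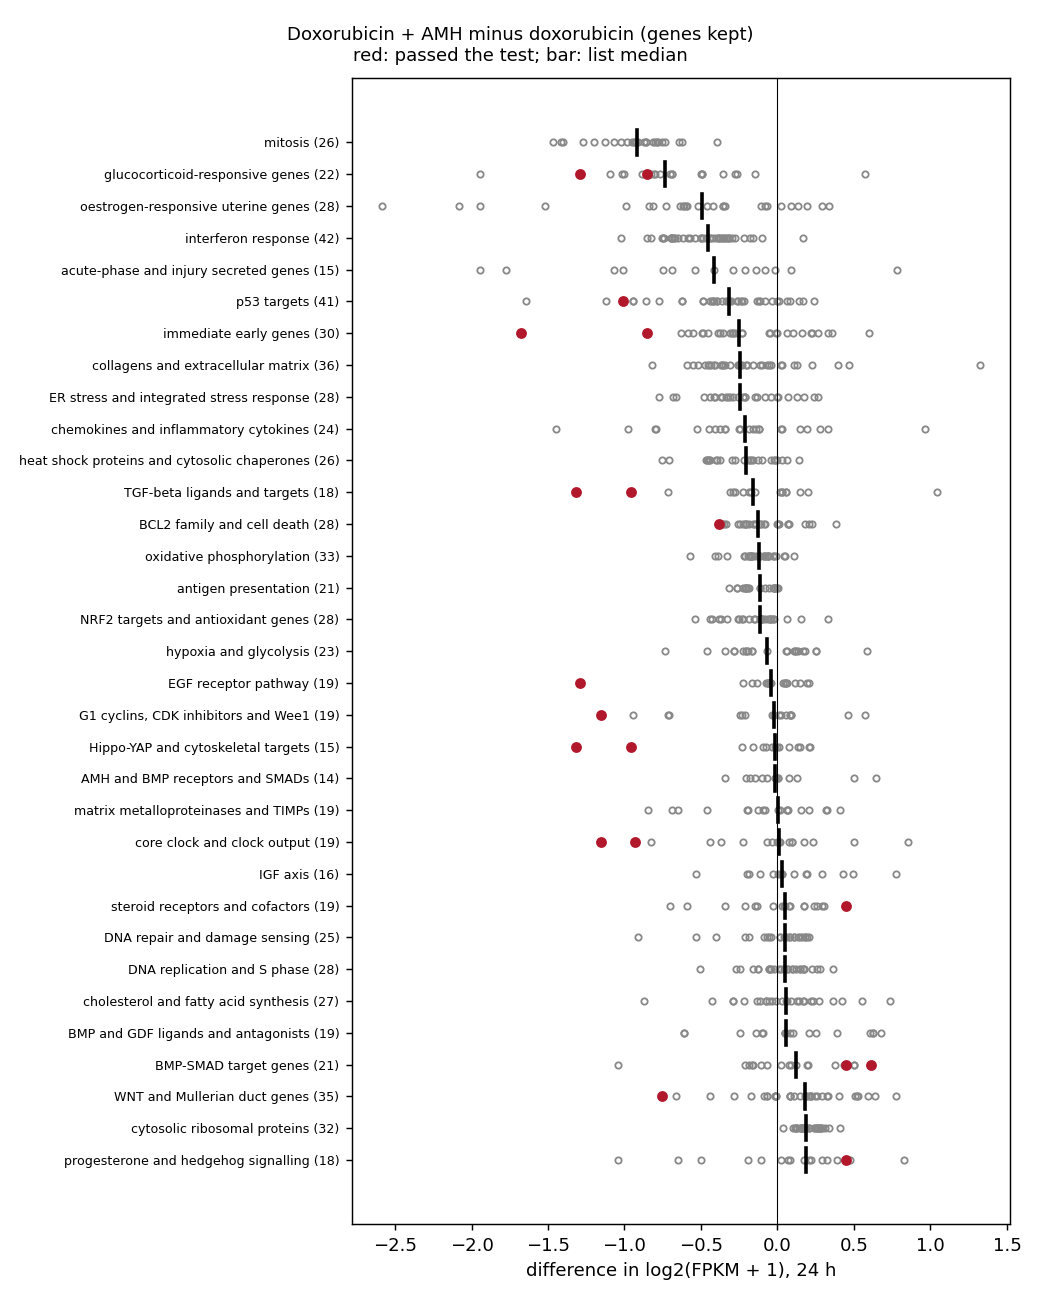
Difference in log2(FPKM + 1), doxorubicin + AMH minus doxorubicin at 24 h, for the kept members of 33 pathway lists (number of genes in brackets). Filled points passed the test (1 gene is not shown) and bars are medians of the whole lists, which run from -0.92 for mitosis to 0.19 for progesterone and hedgehog signalling.

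Glucocorticoid-responsive genes were lower as a group in the uteri that had received AMH with doxorubicin. Of 22 kept, 21 had a log2 difference below 0, 15 were lower at an unadjusted p under 0.05 (6.22% of all genes), 7 lay below without overlap (1.36% of all genes), and Errfi1 and Dusp1 passed (0.23% of all genes fell). The median was -0.74, against -0.004 over all genes. The list score was 3.37 to 3.71 with doxorubicin + AMH, against 3.87 to 4.65 with doxorubicin, and the groups did not overlap. It was 3.32 to 3.84 with AMH alone and 3.77 to 4.17 with vehicle. Tsc22d3, which encodes the glucocorticoid-induced leucine zipper GILZ, had 24.5, 26.8, 23.5, 14.2 and 15.8 FPKM, against 30.9, 68.8, 32.4, 58.2 and 33.6 FPKM with doxorubicin. It separated the groups but did not pass (log2 difference -1.02 ± 0.27, adjusted p = 0.0984). Sgk1, a kinase induced by glucocorticoids, had 5.77, 8.70, 6.60, 9.91 and 9.07 FPKM, against 12.7, 16.1, 9.92, 17.9 and 17.4 FPKM with doxorubicin (adjusted p = 0.103). Per1, a clock gene that glucocorticoids also induce, had 6.02, 7.98, 7.95, 11.7 and 7.24 FPKM, against 9.80, 18.5, 11.8, 19.03 and 18.3 FPKM, with library 4 of the first group inside the range of the second (adjusted p = 0.103). Fkbp5, an inhibitor of receptor activation, overlapped between the groups, at 1.29 against 2.88 FPKM (adjusted p = 0.299). The receptor gene itself, Nr3c1, averaged 17.2 FPKM, against 15.3 FPKM with doxorubicin (adjusted p = 0.631). The one member above 0 was Cdkn1c, at 0.57. Several members answer to other signals too, and plasma hormone levels were not analysed here. Without doxorubicin library 5 the number that fell was 4, Tsc22d3 among them (adjusted p = 0.0444), against 107 of all 14360 genes. The median was -0.75 without that library and -0.80 without the high-oviduct libraries.

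**Figure D3:**
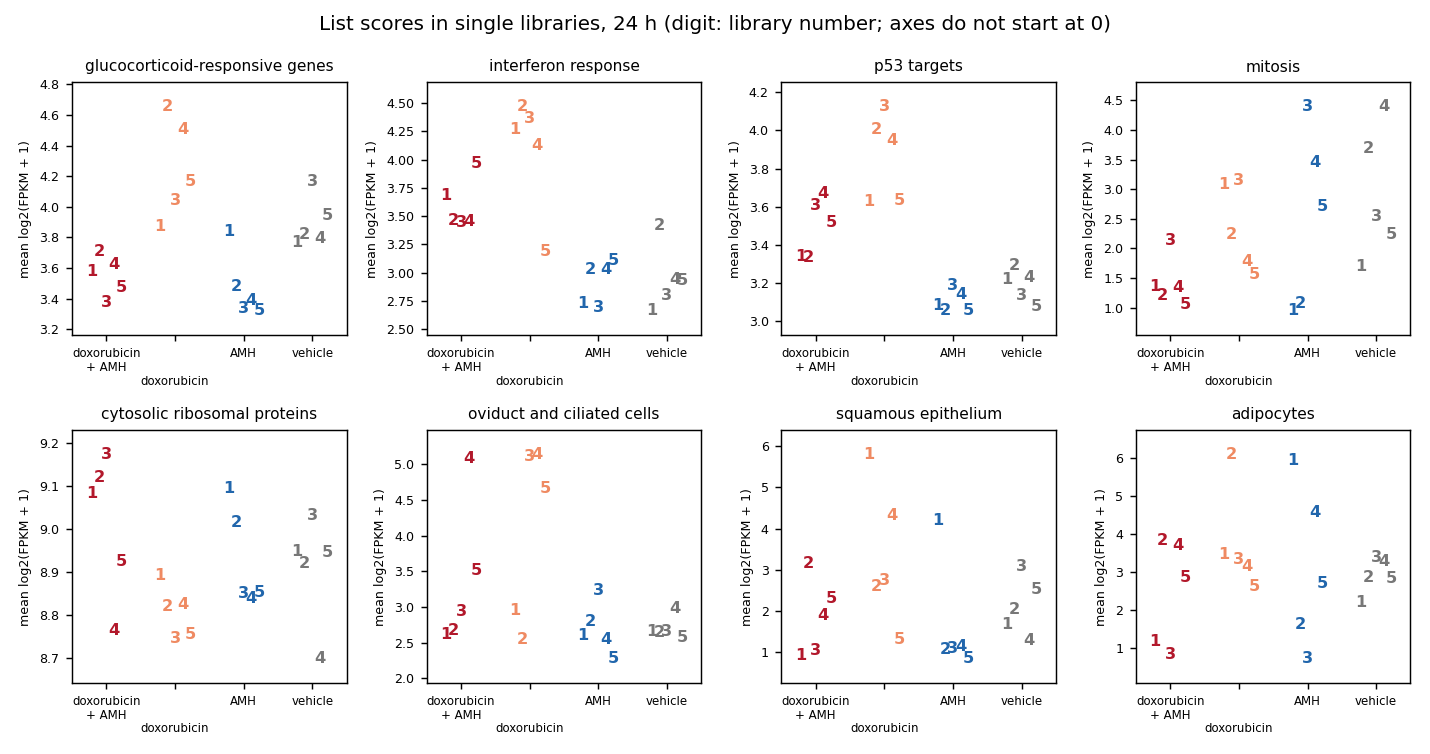
Mean log2(FPKM + 1) of 8 gene lists in each 24 h library, shown by its library number, for doxorubicin + AMH, doxorubicin, AMH and vehicle from left to right. The glucocorticoid-responsive score separates doxorubicin + AMH (3.37 to 3.71) from doxorubicin (3.87 to 4.65), whereas the other 7 scores overlap between these groups.

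Interferon-response and macrophage genes lay mostly below 0, with list scores that overlapped between the groups. Of 42 interferon-response genes, 41 lay below 0 (50.9% of all genes), with a median of -0.46. At an unadjusted p under 0.05, 14 were lower (6.22% of all genes), but none passed and none separated the groups. The score was 3.44 to 3.96 with doxorubicin + AMH and 4.13 to 4.47 in doxorubicin libraries 1 to 4, while doxorubicin library 5 was the lowest of the 10 at 3.19. Without that library the median was -0.68 and 2 of the 42 fell, against 107 of all 14360 genes. Oas2, an antiviral enzyme, had 6.84, 6.55, 5.49, 6.56 and 11.1 FPKM, against 15.997, 14.8, 20.1, 21.1 and 4.40 FPKM with doxorubicin (adjusted p = 0.381). Of 12 macrophage markers, 11 lay below 0 with a median of -0.32, 6 were lower at an unadjusted p under 0.05 (6.22% of all genes) and none passed. Their score was 3.27 to 3.51, against 3.30 to 4.20 with doxorubicin. Without doxorubicin library 5 the macrophage median was -0.47 and 3 markers fell, beside the same 107 of 14360 genes. Both scores were lowest among the doxorubicin libraries in library 5, and the part of macrophages in the interferon list was not tested.

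No gene of the AMH receptors and their SMADs passed with all libraries. Amhr2, the receptor, had 3.51, 3.81, 8.32, 5.17 and 4.06 FPKM with doxorubicin + AMH, against 2.11, 1.60, 2.57, 1.57 and 8.09 FPKM with doxorubicin. The groups overlapped through doxorubicin library 5, and Amhr2 did not pass (log2 difference 0.65 ± 0.28, adjusted p = 0.32). Doxorubicin library 5 also had the highest ovary marker score (4.57, against 3.05 to 3.70 in the other 9 libraries). That score rests on 3 kept of 12 listed markers (Inha, Star and Foxl2). Without that library Amhr2 passed (log2 difference 0.97, adjusted p = 0.034), the 1 call in its list, while 131 of all 14360 genes rose. Amh was below the filter, at 0 to 0.515 FPKM with doxorubicin + AMH and at 0 to 0.22 FPKM in doxorubicin libraries 1 to 4, against 9.20 FPKM in doxorubicin library 5. The list of AMH and BMP receptors and SMADs held 14 kept genes, of which Bmpr1a and Acvr1 had log2 differences of -0.01 and -0.21. Smad9, which encodes a SMAD of the BMP branch, had 1.85, 1.43, 1.82, 1.18 and 1.70 FPKM, against 0.753, 0.945, 0.933, 0.806 and 0.708 FPKM with doxorubicin. Smad9 was below 1 FPKM in every doxorubicin library and so passed the filter only through the higher group. A gene kept in that way separates the groups by selection, so its separation is no support. Smad9 did not pass the test (log2 difference 0.50 ± 0.14, adjusted p = 0.116).

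Among 21 BMP-SMAD target genes kept, Id4 and Gata2 rose (0.146% of all genes), 7 were higher at an unadjusted p under 0.05 (6.69% of all genes), and the median was 0.12. Without doxorubicin library 5 the number that rose was 3, against 131 of all 14360 genes. Id4 (chromosome 13, 48261228 to 48266026), which encodes an inhibitor of DNA binding by bHLH factors, had 29.7, 34.2, 33.0, 27.6 and 37.9 FPKM with doxorubicin + AMH, against 21.7, 21.7, 22.2, 18.0 and 20.7 FPKM with doxorubicin. All 5 lay above the highest doxorubicin library, and the log2 difference was 0.61 ± 0.12 (adjusted p = 0.0164). The other Id genes had differences of the same sign and did not pass: Id1 at 0.50 (adjusted p = 0.218), Id2 at 0.43 (0.164) and Id3 at 0.45 (0.277). Id1 had 85.3, 110, 89.2, 89.6 and 86.9 FPKM, against 50.7, 84.1, 66.9, 62.3 and 62.8 FPKM with doxorubicin, without overlap. Fst, which encodes the activin and BMP antagonist follistatin, lay on the other side, at 0.682, 0.597, 0.524, 0.808 and 0.946 FPKM, against 1.14, 5.35, 1.09, 1.07 and 8.04 FPKM with doxorubicin (log2 difference -1.04, adjusted p = 0.292). Fst was below 1 FPKM in every doxorubicin + AMH library and so passed the filter only through the doxorubicin group. The Id4 call was lost without the high-oviduct libraries (adjusted p = 0.0895).

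Gata2 had the smallest p of all genes. Gata2 (chromosome 6, 88193891 to 88207032), a transcription factor that acts with the progesterone receptor in the uterus, had 49.1, 54.6, 50.3, 47.4 and 54.3 FPKM with doxorubicin + AMH, against 35.9, 37.3, 33.1, 40.003 and 39.9 FPKM with doxorubicin. The groups were far apart relative to their spread, and the log2 difference was 0.45 ± 0.07 (adjusted p = 0.00208). AMH alone gave 47.4 FPKM and vehicle 42.9 FPKM on average. Gli1, the transcription factor whose level reads out hedgehog activity, had 30.1, 25.9, 24.7, 27.4 and 31.1 FPKM, against 10.51, 21.02, 18.4, 8.35 and 22.98 FPKM with doxorubicin. Gli1 and Ptch1 (log2 differences 0.83 and 0.48) separated the groups and did not pass (adjusted p = 0.282 and 0.225). Ihh, the hedgehog ligand of uterine epithelium, was at -0.50. Of 18 progesterone and hedgehog genes 13 lay above 0 (49.1% of all genes) and the median was 0.19. The levels of the receptor genes Pgr and Esr1 gave log2 differences of 0.29 and 0.05 (adjusted p = 0.402 and 0.848). Without the high-oviduct libraries Gata2 passed.

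**Figure D4:**
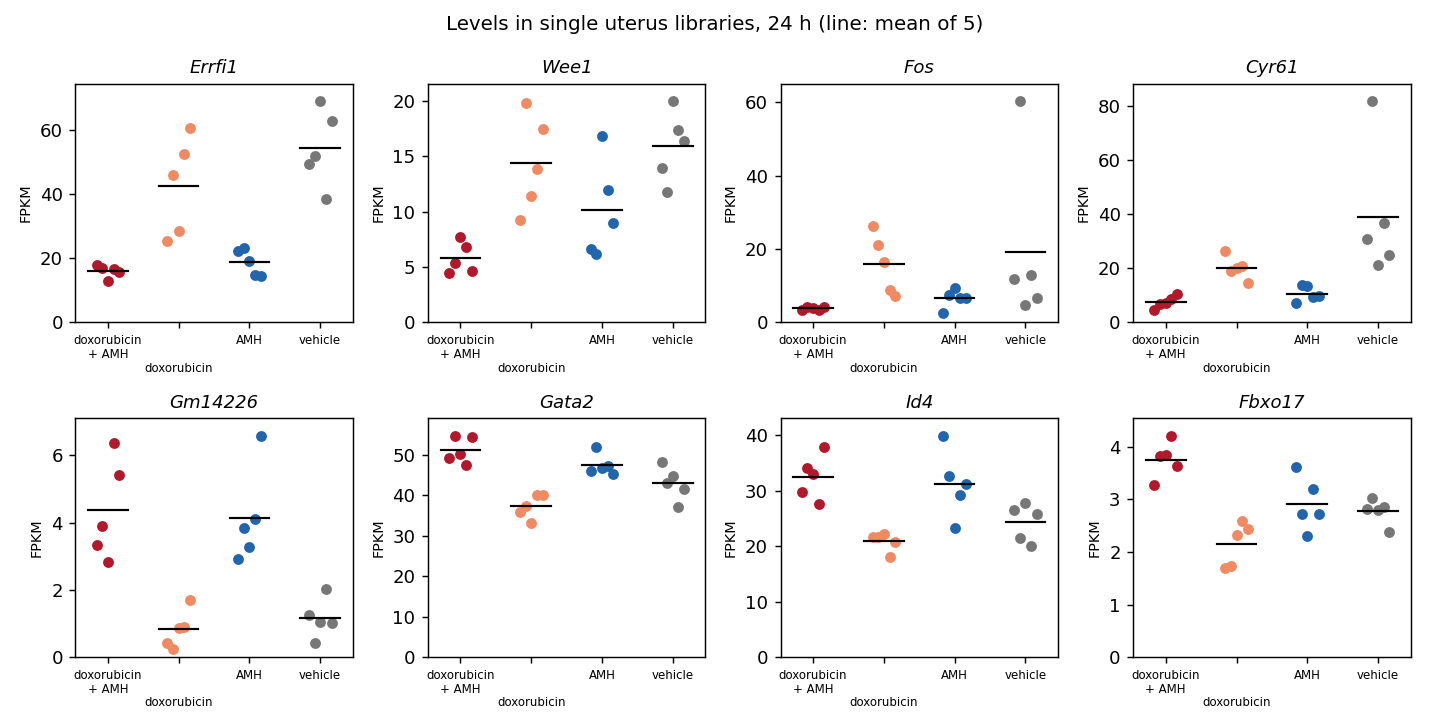
FPKM of 8 genes in each 24 h library (points) with the mean of 5 (line), for doxorubicin + AMH, doxorubicin, AMH and vehicle from left to right; each axis starts at 0. In all 8 genes the 5 doxorubicin + AMH libraries lie on one side of the 5 doxorubicin libraries, lower for the first 4 and higher for the last 4.

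Gm14226 showed the largest increase among the genes that passed. Gm14226 (chromosome 2, 155018266 to 155027104), a predicted gene, had 3.32, 3.90, 2.83, 6.38 and 5.41 FPKM with doxorubicin + AMH, against 0.435, 0.243, 0.876, 0.903 and 1.70 FPKM with doxorubicin. The log2 difference was 1.56 ± 0.26 (adjusted p = 0.00368), from 187 to 449 rebuilt reads per library against 14 to 110. It overlaps the nonagouti gene on the same strand, so its reads could be assigned to either. Lefty1, an antagonist of Nodal in the TGF-beta family, had 3.19, 4.26, 4.27, 5.16 and 3.02 FPKM, against 1.53, 1.99, 1.86, 1.39 and 3.22 FPKM with doxorubicin, where library 5 reached into the other group (log2 difference 0.74, adjusted p = 0.0154). Lyz1, a lysozyme with a close paralog that could share reads, had 4.99, 5.18, 2.95, 3.20 and 3.59 FPKM, against 1.46, 1.65, 0.267, 1.28 and 1.15 FPKM (log2 difference 1.22, adjusted p = 0.0249). Both Lefty1 and Gm14226 passed without the high-oviduct libraries and Lyz1 did not (adjusted p = 0.283).

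Other genes passed outside the groups above. Spsb1, a substrate adaptor of ubiquitin ligases, averaged 5.41 ± 0.53 FPKM with doxorubicin + AMH, against 12.3 ± 2.63 FPKM with doxorubicin (SD, n = 5 each; limma adjusted p = 0.0249). Tcf23, a bHLH factor, averaged 18.7 ± 2.65 FPKM against 36.5 ± 9.32 FPKM, and Tiparp, a mono-ADP-ribosyltransferase induced by the aryl hydrocarbon receptor, 6.04 ± 0.961 FPKM against 11.3 ± 3.33 FPKM. Other decreases were in Trp53inp2 (log2 difference -0.88), which acts in autophagy, in Tent5a (-0.72), a poly(A) polymerase, and in Depdc7 (-0.65). Ap3s1 (-0.65), Cables1 (-0.62), Enc1 (-0.61), Cnnm2 (-0.58), 1700017B05Rik (-0.54), Banp (-0.53), Gm42547 (-0.52) and Peli1 (-0.50), a ubiquitin ligase, followed. The smallest decreases were in Susd6 (-0.45), Cpeb2 (-0.43), which binds mRNA tails, Akirin2 (-0.37), Uhrf2 (-0.32) and Ammecr1l (-0.31). Among increases, Spata45 was at 1.02, from 12 to 34 rebuilt reads per library against 2 to 8 with doxorubicin. Adam11 (0.75), Gm12966 (0.71), Gm49327 (0.69), Foxred2 (0.67), Fbxo17 (0.60), Gm43682 (0.49), Tspyl4 (0.46), 5930430L01Rik (0.45) and Dgke (0.45), a diacylglycerol kinase, also rose. Mfsd10 (0.34), Tnk2 (0.32), a tyrosine kinase, Slc20a2 (0.30), a phosphate transporter, Wiz (0.27), a zinc finger protein, and Pcif1 (0.26), the methyltransferase of the mRNA cap, rose least. Per the table's annotation 6 of the 54 are transcription factors (Fos, Nfil3, Tcf23, Wiz, Gata2 and Id4), which is 11.1%, against 6.43% of all genes kept. Another gene of the table overlaps 22 of the 54, and in 6 of them that gene is protein coding (Banp, Pcif1, Slc20a2, 5930430L01Rik, Tspyl4 and Gm14226).

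Other lists held no gene that passed. Over all genes 49.1% had a log2 difference above 0 and 50.9% below 0. All 32 cytosolic ribosomal protein genes had a log2 difference above 0, with a median of 0.19 and 14 higher at an unadjusted p under 0.05 (6.69% of all genes), and their score was 8.77 to 9.17, against 8.74 to 8.89 with doxorubicin. Doxorubicin + AMH library 4 was the lowest of its group and within the doxorubicin range. Heat shock genes lay below 0 in 23 of 26 (median -0.21) and ER stress genes in 22 of 28 (-0.24), and in both lists doxorubicin + AMH library 4 and doxorubicin library 5 were the highest of their groups. Without doxorubicin library 5 the medians were -0.14 for heat shock genes and -0.03 for ER stress genes. Oestrogen-responsive uterine genes lay below 0 in 22 of 28 (-0.49), oxidative phosphorylation genes in 30 of 33 (-0.12) and NRF2 targets in 25 of 28 (-0.11). None of the 19 cell type lists held a gene that passed. Among them, squamous epithelium markers had a median of -1.59 over 6 kept of 15 listed and adipocyte markers -1.40 over 8 of 10, with scores that ranged from 0.913 to 3.16 and from 0.819 to 3.83 with doxorubicin + AMH, against 1.32 to 5.79 and 2.60 to 6.08 with doxorubicin. Epithelial markers lay below 0 in 17 of 18 (-0.32), and smooth muscle and stroma markers had medians of 0.15 and -0.03. The part of these cell types in the 54 genes was not tested.

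AMH given without doxorubicin gave differences of the same sign for most of the 54 genes. AMH alone against vehicle at 24 h shares no library with the comparison above, but both tests used the same spread for each gene, so their p-values are not independent. Of the 54 genes, 51 had the same sign there, 40 of them at an unadjusted p under 0.05 and 16 past the test. In either direction, 19.9% of all genes had an unadjusted p under 0.05 and 80 genes passed (0.557%). Over all genes 66.8% had the same sign, and the correlation across genes was 0.47, with genes not being independent replicates. Errfi1 had a log2 difference of -1.48, Cyr61 of -1.65 and Gm14226 of 1.26 with AMH alone. Enc1, Cables1 and Cnnm2, which fell with doxorubicin + AMH, had differences of 0.04, 0.00 and -0.04 with AMH alone. Whether the AMH difference depended on doxorubicin was tested directly, as the difference between both AMH differences. No gene passed that limma test (0 of 14360 genes, smallest adjusted p = 0.929), and 598 (4.16%) had an unadjusted p under 0.05. Voom also gave 0 genes, library weights gave 297, and leaving out doxorubicin library 5 gave 1.

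At 4 h the same addition of AMH to doxorubicin, in other libraries, gave 2 calls (0.0139%). There 45 of the 54 genes had the same sign, against 65.5% of all genes (correlation across genes 0.45). Of the 45, 17 had an unadjusted p under 0.05, as did 7.02% of all genes in either direction. The 4 h test used the same spread for each gene as the 24 h test. Gm14226 was the one of the 54 that passed at both times: at 4 h it had 5.17, 9.50, 13.0, 13.8 and 10.3 FPKM with doxorubicin + AMH, against 0.853, 1.01, 3.36, 2.36 and 1.57 FPKM with doxorubicin (adjusted p = 7.4e-05). Errfi1 (-0.17), Fos (-0.20), Cyr61 (0.19) and Dusp1 (0.27) were closer to 0 at 4 h. In the test of the 24 h minus the 4 h difference, Banp was the 1 gene that passed (0.00696%, 533 genes at an unadjusted p under 0.05). Banp, a nuclear matrix protein that binds DNA, had 5.01, 4.82, 6.19, 5.06 and 4.98 FPKM at 24 h with doxorubicin + AMH, against 7.44, 7.25, 7.4996, 8.74 and 8.94 FPKM with doxorubicin. At 4 h it had 3.61, 4.41, 4.18, 3.62 and 4.46 FPKM, against 2.85, 3.73, 3.22, 2.92 and 3.44 FPKM. The AMH difference was thus negative at 24 h and positive at 4 h (difference -0.79 ± 0.14, adjusted p = 0.0461). That call was lost when doxorubicin + AMH library 1, 2, 4 or 5 or doxorubicin library 1, 3, 4 or 5 was left out (0 genes each).

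**Figure D5:**
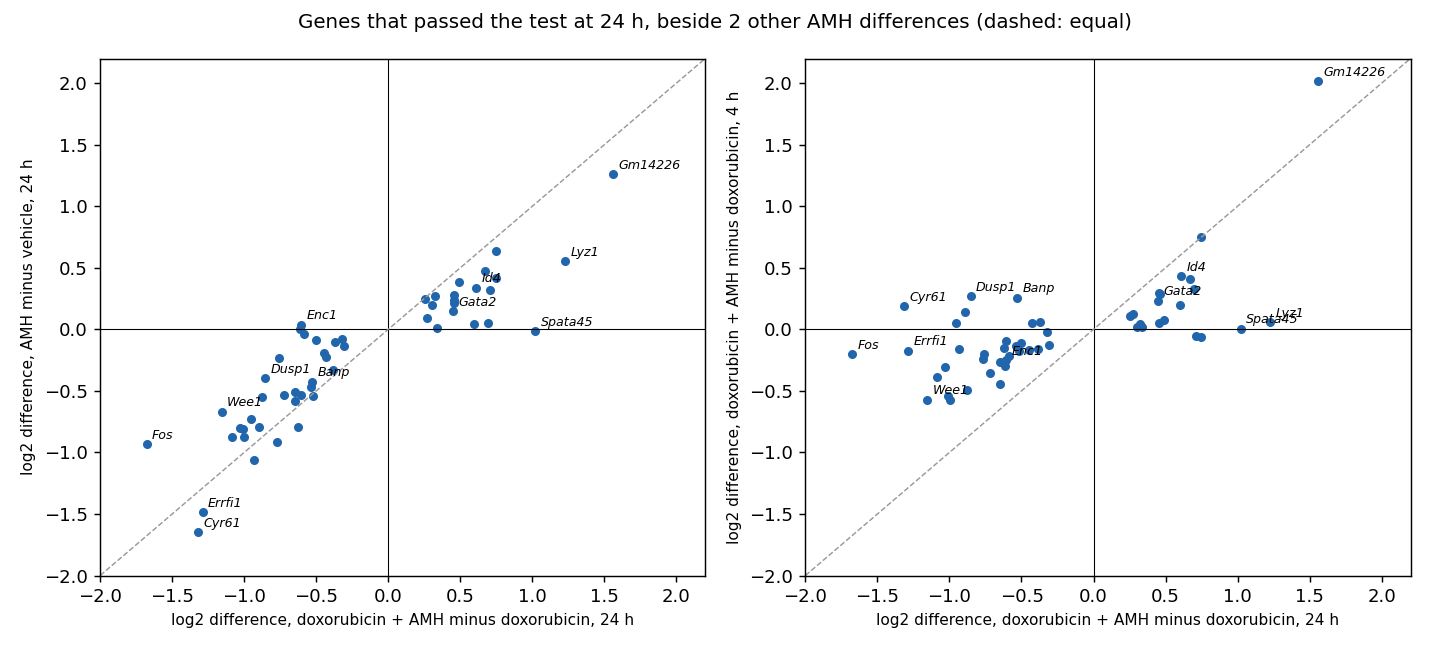
Log2 differences of the genes that passed (1 gene is not shown) for doxorubicin + AMH minus doxorubicin at 24 h (horizontal) beside AMH minus vehicle at 24 h (left, vertical) and doxorubicin + AMH minus doxorubicin at 4 h (right, vertical); the dashed line marks equal values. Most genes share the sign of the 24 h difference in both panels, as 51 (left) and 45 (right) of all 54 genes did.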

How the data were processed

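Total RNA of mouse uterus was extracted with a Qiagen kit and sequenced from libraries made by Novogene, per the labels' protocols. The deposited FPKM values cover 54532 genes in 40 libraries, per the file headers, and all value columns were matched to a sample by name. Build mm10 is named in the submitters' processing notes; the sources used here do not give aligner, counting, annotation or use of strand. FPKM times gene length gave whole reads in 100% of values (tolerance 0.01 reads). The total that the FPKM were scaled to was 0.859 (vehicle library 2, 24 h) to 1.057 (doxorubicin + AMH library 5, 24 h) times the reads in genes. Median-of-ratios factors of the FPKM were 1.004 in all 40 libraries, so the values were already even on that scale. Of the groups of 5, no pair of libraries was a duplicate by its counts (smallest chi-square over degrees of freedom 8.95).

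Genes that reached 1 FPKM in 5 or more of the 10 libraries compared were tested as log2(FPKM + 1), which understates the change of low genes, using limma (version 3.58.1; R 4.3.3; reader package data.table, 1.17.8). A mean for each of 8 groups, an intensity trend and 32 residual degrees of freedom were used. Two-sided p-values received Benjamini-Hochberg adjustment over 14360 genes. The dependence on doxorubicin and on time was tested as a contrast of differences in the same fit. In simulated data for this comparison, 44.8% of genes changed 1.5-fold, 74.6% of those changed 2-fold and 92.4% of those changed 4-fold were recovered, with 9 calls among 14160 unchanged genes. Changes were placed only in genes with a mean of 2 FPKM or more. The noise was independent between genes, and each gene had the same spread in all groups. Shifts that many genes of a library share were not simulated, so these rates may not hold for the real libraries.

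The groups, the 52 lists (33 pathways, 19 cell types), the tests and the named genes were chosen with earlier results of these data known. Every gene that passed could be named, except 1 that is not reported here, beside up to 4 genes per list and a set named whether or not it passed. List members outside that rule were named after their values were seen (Tsc22d3, Per1 and Fkbp5 belong to the set; Sgk1, Gli1, Ptch1, Ihh, Fst, Oas2 and Cdkn1c do not). Lists are described by counts and medians, with no test of the list. Motifs were chosen after the results were seen. Alternatives were a pseudocount of 0.1, other filters, scaling by median of ratios, fewer libraries in the fit and library weights. Others were robust estimation, a replicate block, voom on the reads rebuilt, an oviduct covariate and libraries left out. Scaling by median of ratios divided every library by the same 1.004, so it could hardly change a result and is no check. Plots used matplotlib 3.10.9 (Python 3.11.15).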

Additional observations from a re-analysis of the deposited data

Results flagged for a closer look

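In the groups of 5 libraries, values were marked where the gap between the most extreme library and its nearest neighbour exceeded 0.71 of the group's range, which chance does in about 1 in 20 groups. With 54 genes, a further set of named genes and 52 lists examined in both groups, some marks come by chance.

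Doxorubicin + AMH library 4 was marked most often. It was highest for Tiparp (gap 0.849 of the range) and lowest for Uhrf2 (0.804). In list scores it was highest for heat shock proteins (0.816), ER stress (0.851), hypoxia and glycolysis (0.783), NRF2 targets (0.857) and cholesterol synthesis (0.755). It was lowest for TGF-beta ligands and targets (0.824), antigen presentation (0.9), WNT and Müllerian duct genes (0.726), Hippo-YAP targets (0.917) and T and NK cell markers (0.829). Doxorubicin library 5 was lowest for Ctgf (0.885), Frzb (0.853), BCL2 family genes (0.767) and the interferon response (0.733). It was highest for Mfsd10 (0.747), Amhr2 (0.74), heat shock proteins (0.76) and ovary markers (0.82).

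The other marks were single libraries. Doxorubicin + AMH library 3 was highest for Banp (0.806), Id2 (0.724) and the mitosis list (0.713), library 2 for Id1 (0.806), and library 1 was lowest for Gm49327 (0.754). Doxorubicin library 3 was lowest for Lyz1 (0.716), library 1 highest for lymphatic endothelium (0.729) and library 2 highest for adipocytes (0.753). Banp was the gene whose AMH difference with doxorubicin differed between 24 h and 4 h (limma adjusted p = 0.0461).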

How the results depend on the processing

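Of the count of 54 genes, the values that moved by over 1.5 times were 26 with no filter on low values, 0 with the 10 libraries alone, 1 with the 24 h libraries, 2135 with library weights, 104 without the high-oestrogen libraries, and 151 without doxorubicin + AMH library 4 and doxorubicin library 5, a choice made after seeing the data. Leaving out 1 library gave 7 to 238 genes. The high-oestrogen libraries were those at 24 h with an oestrogen list score over 0.6 above the median of all 40. They were doxorubicin library 1, AMH library 3 and vehicle libraries 1, 2 and 4. Of the 10 libraries compared this removes doxorubicin library 1 only. The log2 differences therefore equal those without that library, where 18 genes passed. The count of the doxorubicin-dependent difference, 0, became 297 with library weights and 1 without both libraries that stand apart, and was 0 to 1 with 1 library left out. The count of the time difference, 1 (Banp), became 2 with library weights or without the high-oviduct libraries. It was 0 with a pseudocount of 0.1, no filter, the filter over all 40 libraries, voom, the oviduct covariate, without the high-oestrogen libraries or without both libraries that stand apart, and 0 to 1 with 1 library left out. The 24 h libraries alone cannot give the time difference.

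The replicate numbers did not pair the samples: same-number deviations correlated at 0.19, 0.23, 0.09, 0.06 and -0.15. With the replicate number as a block 45 genes passed, 37 of them among the 54.

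Among genes named, 3 with differences near 0, none of which passed, changed sign. Bmpr1a was at 0.0104 with library weights, 0.0026 with voom, 0.0252 without the high-oestrogen libraries, 0.067 without both libraries that stand apart, and -0.071 to 0.0339 with 1 library left out. Atoh8 was at 0.13 without the high-oviduct libraries and -0.224 to 0.0546 with 1 library left out. Top2b was at -0.000448 without the high-oestrogen libraries, -0.0218 with the oviduct covariate, and -0.0338 to 0.0868 with 1 library left out. Of the other values of named genes, 1232 kept their side of the threshold and their sign, 561 no longer passed and 16 newly passed. The cause of these changes was not tested. FPKM of genes with few reads limits the precision of Spata45, Depdc7 and Fst.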

Other observations

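The collagen and matrix list and the stress lists differ in how far they rest on the libraries that stand apart. Without doxorubicin + AMH library 4 and doxorubicin library 5, the median log2 difference of ER stress genes was -0.30 and 2 of 28 fell (-0.03 and 1 without doxorubicin library 5 alone), that of heat shock genes was -0.24 with none of 26 past the test, and that of matrix genes was -0.22. In the same libraries 2 of 32 ribosomal protein genes rose (median 0.24), 3 of 41 p53 targets fell (median -0.42) and 3 of 22 glucocorticoid-responsive genes fell (median -0.82). Over all 14360 genes, 86 rose and 65 fell in these libraries. Of acute-phase and injury genes, 13 of 15 lay below 0 in the full comparison (50.9% of all genes). Their median was -0.42, with none past the test. Erythroid markers lay above 0 in 5 of 5 (49.1% of all genes), with a median of 0.64. Their scores were 2.79 to 4.35 with doxorubicin + AMH, against 2.56 to 4.05 with doxorubicin.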
